A study of Mus musculus with 48 samples.

Results

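Expression of 10 NF-kB pathway genes was followed through all 48 RNA-seq libraries of the study: the 5 subunits Nfkb1, Nfkb2, Rel, Rela and Relb, the inhibitors Nfkbia, Nfkbie and Nfkbiz, the feedback enzyme Tnfaip3 and the cytokine Tnf. They were chosen by symbol, and all 10 were among the 24054 gene symbols of the deposited count table. The libraries formed 16 groups of 3. Cultured mouse breast tumour lines gave 24 libraries: 4 are from the BALB/C strain by label (T11, 2208L, 67NR, 4T1) and 4 from C57BL/6 (AT3, E0771, PyMT-N, PyMT-M). E0771 was grown in RPMI and the other lines in high-glucose DMEM. The labelled passage was 14 for PyMT-N and 7 for PyMT-M, 14 for E0771 and 15 for AT3, 19 for 67NR, and 15 to 20 for T11, 2208L and 4T1. From T11, 2208L, E0771 and AT3 tumours, live CD45+ CD11b+ cells were sorted as neutrophils (Ly6G+, medium to low Ly6C) or macrophages (Ly6G-, Ly6C-, F4/80+), with 12 libraries of each type. The sample titles name no targeted allele or drug treatment, and the genetic origin of the lines is not described here. Each line is 1 cell line, and the labels name no separate cultures or animals, so p-values measure the spread between these libraries, which may be technical. In both E0771 sorted groups, library 1 carries the strain label BALB/C and the others C57BL/6. The tumours came from lines of both strain labels, T11 and 2208L of BALB/C and E0771 and AT3 of C57BL/6. Tests of any difference among the 4 tumours thus span both strains.

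NF-kB proteins are dimeric transcription factors that inhibitors of the I-kappa-B family hold inactive. Receptors for TNF, interleukin-1, CD40 ligand and bacterial products activate I-kappa-B kinases, the inhibitors are degraded, and the freed dimers switch on inflammatory and survival genes. Several of the induced genes end the response: Nfkbia and Nfkbie encode inhibitors that recapture the dimers, Tnfaip3 encodes an enzyme that edits ubiquitin chains on the receptor complexes, and Nfkb2 and Relb serve the slower, non-canonical branch. Nfkbiz encodes a nuclear regulator of NF-kB targets, and Tnf is both an activator and a target of the pathway.

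The promoters of 4 of these genes are shown because Tnfaip3, Nfkbie and Nfkb2 were high in the same lines, and Nfkbia and Nfkb2 differed between the macrophages. Each is the 250 bases before a RefSeq start site on the strand of the gene, in build GRCm38.p6, and capitals mark 10-base kB matches on either strand. Windows from 250 bases before to 50 bases after the start were searched on both strands for the NF-kB consensus and for GGGNNNTTCC, and the 2 forms overlap.
Tnfaip3, chr10:19015411-19015660, minus strand: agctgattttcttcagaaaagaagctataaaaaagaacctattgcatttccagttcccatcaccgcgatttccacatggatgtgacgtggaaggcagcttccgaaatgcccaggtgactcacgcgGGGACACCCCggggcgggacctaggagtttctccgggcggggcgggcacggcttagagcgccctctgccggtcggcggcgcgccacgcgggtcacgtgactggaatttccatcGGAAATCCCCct
Nfkbie, chr17:45555450-45555699, plus strand: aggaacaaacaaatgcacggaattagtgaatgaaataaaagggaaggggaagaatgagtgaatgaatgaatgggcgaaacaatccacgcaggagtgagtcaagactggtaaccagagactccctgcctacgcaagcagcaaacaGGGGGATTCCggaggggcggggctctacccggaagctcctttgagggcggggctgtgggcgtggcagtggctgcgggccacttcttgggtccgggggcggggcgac
Nfkbia, chr12:55492648-55492897, minus strand: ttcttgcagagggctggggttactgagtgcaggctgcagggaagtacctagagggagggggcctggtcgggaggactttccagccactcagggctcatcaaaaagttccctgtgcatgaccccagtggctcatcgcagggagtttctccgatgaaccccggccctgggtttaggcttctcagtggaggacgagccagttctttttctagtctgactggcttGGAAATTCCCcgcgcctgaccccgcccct
Nfkb2, chr19:46304487-46304736, plus strand: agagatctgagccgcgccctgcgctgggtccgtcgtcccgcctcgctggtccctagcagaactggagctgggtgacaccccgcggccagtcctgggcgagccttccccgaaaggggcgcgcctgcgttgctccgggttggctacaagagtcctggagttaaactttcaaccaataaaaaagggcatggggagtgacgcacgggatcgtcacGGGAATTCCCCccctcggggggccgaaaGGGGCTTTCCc

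RefSeq gave 10 windows for 7 of the 10 genes. A match to the consensus was found in 7 windows of 5 genes and a match to the second form in 8 windows of the same 5: Nfkb2, Rel, Nfkbia, Nfkbie and Tnfaip3. Of all 32851 promoters searched, 4.505% held the consensus, 5.555% the second form and 8.456% either. Counted from 0 at the start site, the Nfkbia match began at -29, that of Nfkbie at -106, and those of Tnfaip3 shown above at -125 and -12. The windows of Rela and Tnf held neither form, which says only that these letters are not in them.

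A line library held 2058329 to 6262942 counts, a neutrophil library 669862 to 3341097 and a macrophage library 1862321 to 6240372. The precursor of ribosomal RNA, Rn45s, made up 3.88% to 14.9% of these counts for lines, 26.8% to 70.3% for neutrophils and 55.0% to 76.2% for macrophages. Levels are CPM, the counts scaled to a common library size, with TMM factors over all libraries, and differences are log2 values with the SE, called at an edgeR quasi-likelihood adjusted p below 0.05. Olfactory and vomeronasal receptor genes, which serve as a measure of background, took 621 to 2977 CPM of the counts outside Rn45s in lines, 876 to 3276 in macrophages and 3879 to 19000 in neutrophils. Per kb of exon, Nfkb1 and Relb were under 10 times this background in 11 of 12 neutrophil libraries, Rel in 8, Nfkbie in 6, Nfkb2 in 5, Rela and Tnf in 4, Tnfaip3 in 2, and Nfkbia and Nfkbiz in 0. In macrophages Relb was under it in 1 library of 12, and the other members in 0. Comparisons with neutrophils moved with the scaling, and so did some without them. The part of background in this was not tested. Apart from comparisons within single tumours, all were also run with DESeq2 size factors, with plain totals outside Rn45s and with factors from genes above background. Values are with TMM factors unless another scaling is named. The neutrophil genes S100a8 and Cxcr2 had 156 to 7905 and 83 to 1711 counts in neutrophils, against 1 to 15 and 0 to 18 in macrophages. The sum of all 8 neutrophil marker genes was 616.2 to 11430 CPM in neutrophils and 78.1 to 4938 in macrophages. In T11 tumours the median of that sum was lower in neutrophils (910.1) than in macrophages (4114). The F4/80 gene, Emr1, was higher in macrophages (129.9 to 265.0 CPM by group) than in neutrophils (24.7 to 70.3).

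Among the cultured lines, Tnfaip3 had the largest range of the 10 genes, its highest group mean being 30.8 times its lowest. It was 223.7 ± 11.3 CPM in PyMT-N, 170.8 ± 4.17 in 2208L and 128.0 ± 13 in 4T1 (SD, n = 3), and between 7.27 ± 0.752 (E0771) and 15.9 ± 1.65 (67NR) in the other 5. The single libraries of PyMT-N held 215.9, 218.5 and 236.6 CPM, those of 2208L 166.3, 174.4 and 171.8, and those of 4T1 143.0, 119.4 and 121.7. No library of the other 5 lines was above 17.7 CPM, so the 3 high lines stood apart from all others. Within the strain pairs Tnfaip3 was higher by 4.89 ± 0.15 in PyMT-N than in PyMT-M (adjusted p = 3.16e-47), by 4.65 ± 0.16 in 2208L than in T11 (adjusted p = 1.84e-43) and by 3.05 ± 0.13 in 4T1 than in 67NR (adjusted p = 6.5e-37, all edgeR). In the 5 low lines Tnfaip3 was under 10 times the background in 14 libraries, with 16 to 96 counts, so the size of these differences depends on low levels. Line and passage cannot be told apart in PyMT-N against PyMT-M, here and for the genes below. In AT3 against E0771, line and culture medium cannot be told apart either.

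Nfkbie, the I-kappa-B epsilon gene, was high in the same 3 lines. It stood at 18.5 ± 0.716 CPM in 2208L, 17.3 ± 1.78 in 4T1 and 15.6 ± 1.32 in PyMT-N. In the other lines it ran from 2.46 ± 0.538 (AT3) to 5.80 ± 1.05 (67NR), with no overlap of single libraries between the 2 sets. All 15 libraries of these 5 lines, with 7 to 35 counts of Nfkbie, were under 10 times the background, so its differences rest on low levels too. Nfkbiz was high in only 2 of the 3, at 94.1 ± 10.6 CPM in PyMT-N and 80.2 ± 2.94 in 2208L, against 15.9 to 27.6 by group in the other 6, 4T1 included (24.8 ± 3.73). Nfkbia followed another order: 67NR was highest at 57.4 ± 2.85 CPM and apart from all other lines, while AT3 (20.5 ± 5.84) and T11 (20.97 ± 2.16) were lowest and overlapped.

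Epcam, an epithelial adhesion gene, was also high in those 3 lines, at 157 to 388 CPM by group, and was 2.07 to 3.00 CPM in the other 5. The 5-gene epithelial sum was 1757 to 4184 CPM in 2208L, 4T1 and PyMT-N libraries and 14.2 to 150 in the rest. The authors' column names give the suffix Epi to 2208L, 4T1, AT3 and the column taken as PyMT-N. AT3 thus carried the suffix but was low in Epcam, Tnfaip3 and Nfkbie alike. The part of epithelial state in these differences was not tested.

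**Figure D1:**
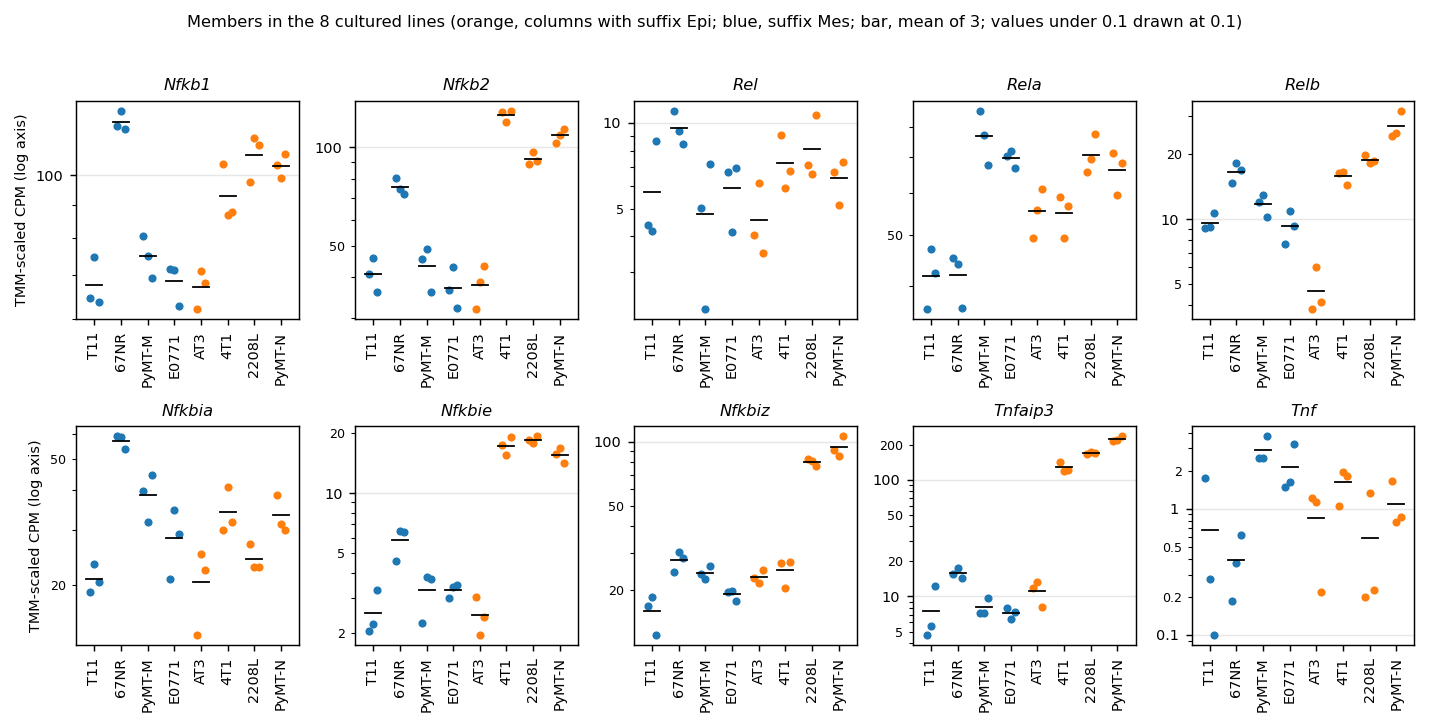
TMM-scaled CPM on log axes of the 10 genes in the 3 libraries of each cultured line, with the mean as a bar; orange marks the columns with the suffix Epi and blue those with Mes. Tnfaip3 and Nfkbie are high in 4T1, 2208L and PyMT-N and low in AT3, and Nfkbiz is high in 2208L and PyMT-N.

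Nfkb1, Nfkb2 and Rela were at least 10 times the background in all 24 line libraries, and of these Nfkb2 had the widest range. Its mean was 125.7 ± 5.41 CPM in 4T1, 108.7 ± 5.08 in PyMT-N, 92.0 ± 3.99 in 2208L and 75.7 ± 4.35 in 67NR, and 37.2 to 43.4 in E0771, AT3, T11 and PyMT-M, which overlapped with one another. Relb, its partner in the non-canonical branch, was highest in PyMT-N (26.96 ± 4.01 CPM) and lowest in AT3 (4.67 ± 1.17). Nfkb1 ran from 67.0 ± 4.598 CPM in AT3 to 120.9 ± 4.13 in 67NR, and its 4 highest lines, 67NR, 2208L, PyMT-N and 4T1, did not overlap with the 4 lowest. Rela, the main activating subunit, was 41.8 ± 5.43 CPM in T11 and 41.9 ± 4.77 in 67NR and reached 77.0 ± 8.94 in PyMT-M. Rel, known mostly from blood cells, was 4.56 to 9.61 CPM by group and under 10 times the background in all 24 line libraries. Tnf had 0 to 15 counts in a line library and was under 10 times the background in 23 of 24, so its order among lines is not read.

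All 10 members passed the test of any difference among the 8 lines, where 89.1% of all genes passed. In 2208L against T11, 7 of 10 were higher and 0 lower, against 22.7% of all genes higher and 18.7% lower. PyMT-N against PyMT-M had 6 higher and 1 lower, against 24.5% and 20.1%. For 4T1 against 67NR the counts were 5 higher and 2 lower, against 23.6% and 24.3%. AT3 against E0771 had 1 higher and 3 lower, against 20.4% and 25.3% (45.7% in either direction). Other scalings moved the share of higher calls among all genes from 54.9% to 33.3% in PyMT-N against PyMT-M and from 54.8% to 44.3% in 2208L against T11 with totals outside Rn45s, from 49.3% to 62.7% in 4T1 against 67NR with the same totals, and from 44.6% to 63.3% in AT3 against E0771 with factors from genes above background. The members called higher and lower then became 6 and 3, 7 and 0, 5 and 1, and 3 and 1. The median member differed by 0.92 in the first 2 pairs (all genes -0.03 and -0.06), by 0.21 in 4T1 against 67NR (all genes 0.11) and by -0.29 in AT3 against E0771 (all genes 0.08).

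The members that rose in all 3 of the first pairs were Nfkb2 (by 1.20 ± 0.12, 1.42 ± 0.11 and 0.78 ± 0.10), Nfkbie (by 2.96 ± 0.26, 2.35 ± 0.25 and 1.63 ± 0.20) and Tnfaip3. Nfkbiz rose by 2.35 ± 0.13 in 2208L and 2.06 ± 0.12 in PyMT-N and was -0.10 ± 0.13 in 4T1 against 67NR. Relb rose in the first 2 as well, by 1.03 ± 0.19 and 1.29 ± 0.17, and so did Nfkb1, by 0.71 ± 0.10 in 2208L and 0.56 ± 0.10 in PyMT-N. Rela rose by 0.81 ± 0.12 in 2208L and 0.44 ± 0.11 in 4T1. These Nfkb1 and Rela calls held under every scaling and without each library in turn. In 4T1, Nfkbia was lower than in 67NR by -0.69 ± 0.13 (adjusted p = 6.9e-06) and Nfkb1 by -0.33 ± 0.10, the latter call lost with totals outside Rn45s. In AT3, Relb was lower than in E0771 by -0.95 ± 0.21 (adjusted p = 0.000132) and Tnfaip3 higher by 0.68 ± 0.20 (adjusted p = 0.00343), a call lost without AT3 replicate 2 (0.53, adjusted p = 0.0614). Rela (-0.32 ± 0.10) and Nfkbia (-0.44 ± 0.14) were also called lower in AT3, but not with totals outside Rn45s (adjusted p = 0.0645 and 0.0550) or with factors from genes above background, and Nfkbia not without E0771 replicate 2 (-0.26) or AT3 replicate 1 (-0.26). Tnf was called in 2 pairs at these few counts, lower in PyMT-N and higher in 4T1, and the first call was lost without any of 5 of the 6 libraries (adjusted p from 0.0565 to 0.163) and the second without 67NR replicate 1 (0.0539).

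A wider list of 63 pathway genes gave 57 of 60 tested with a difference among the lines. Among receptors, Il1r1, the interleukin-1 receptor, ran from 6.39 ± 0.592 CPM in PyMT-N to 104.5 ± 15.7 in AT3, and Tnfrsf1b, the second TNF receptor, from 4.42 ± 0.547 in AT3 to 61.7 ± 4.54 in 67NR. Birc3, a ubiquitin ligase of the receptor complex, was highest in 2208L (17.4 ± 2.76 CPM) and the kinase gene Ikbke in PyMT-N (111.1 ± 8.71). Known targets moved furthest: Ptgs2, the inducible prostaglandin synthase, reached 2888 ± 188 CPM in PyMT-N, against 3.74 ± 1.18 in PyMT-M. Csf3, the granulocyte colony-stimulating factor gene, was 144.2 ± 7.32 in PyMT-N and 0.751 ± 0.845 in T11, and Ccl2, a monocyte chemokine gene, was 110.1 ± 1.55 in 67NR and 0.594 ± 0.441 in PyMT-N. Ptgs2 and Csf3 thus had their highest level in the line with most Tnfaip3, and Ccl2 its lowest. Of the 60, 28 were higher and 7 lower in 2208L than in T11, 26 and 15 in PyMT-N than in PyMT-M (21 and 23 with totals outside Rn45s), 15 and 21 in 4T1 than in 67NR (19 and 17 with them) and 14 and 28 in AT3 than in E0771.

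Averaged over the 4 tumours, Rel, Nfkbia, Nfkbie, Nfkbiz, Tnfaip3 and Tnf were higher in neutrophils and in macrophages than in the cultured lines of those tumours, under all 4 scalings. Tnfaip3 in 2208L was an exception to this average. In bulk samples a change in the share of a cell type cannot be told apart from a change in RNA per cell. Against the lines, 7 members were higher and 3 lower in neutrophils (49.5% and 35.9% of all genes, 85.5% in all) and 9 were higher and 0 lower in macrophages (15% and 43.7%). The median member difference was 2.29 in neutrophils, where all genes had 0.57, and 2.33 in macrophages, where all genes had -0.50. Most genes differed between sorted cells and cultured lines, so the size of each difference says more here than its call.

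Tnf was 8.06 to 49.4 CPM by group in neutrophils and 8.61 to 40.1 in macrophages, and every sorted library (lowest 5.88 CPM) lay above every line library (highest 3.74). It was higher by 4.24 ± 0.25 in neutrophils and 4.50 ± 0.25 in macrophages than in the lines. Rel was 15.7 CPM or more in each sorted library and 11.0 or less in each line library, and was higher by 2.41 ± 0.16 and 3.16 ± 0.16. Relative to background per kb, though, Rel was 2.47 to 5.07 times in T11 neutrophils and 3.21 to 5.83 times in the T11 line. By this measure Nfkbia, Nfkbie, Nfkbiz, Tnfaip3 and Tnf in T11 neutrophils overlapped with the T11 line too. Rel in 2208L, E0771 and AT3 neutrophils stayed above the line of the tumour. Nfkbia was higher by 2.76 ± 0.15 and 2.32 ± 0.15, Nfkbiz by 2.96 ± 0.14 and 2.34 ± 0.14, Nfkbie by 2.20 ± 0.17 and 3.32 ± 0.16. The lowest sorted Nfkbia library held 35.8 CPM and the highest library of the 4 lines the tumours came from 34.5, while 67NR reached 59.2. Tnfaip3 was higher by 2.38 ± 0.14 and 2.36 ± 0.14 on average, but not in every tumour. The 2208L line held 166.3, 174.4 and 171.8 CPM, 2208L macrophages 193.4, 124.1 and 91.97, and 2208L neutrophils 186.4, 213.1 and 179.0. With TMM factors 2 of the 3 macrophage libraries were thus below every line library and the 3 neutrophil libraries above every one. With totals outside Rn45s the means were 195.5 in the line, 266.7 in macrophages and 466.7 in neutrophils. Relative to background per kb, though, Tnfaip3 was 57.9 to 89.7 times in 2208L neutrophils, below the 137.4 to 156.5 of the line. In 2208L macrophages it was 47.6 to 214.1 times. By this measure Nfkbie in 2208L neutrophils (25.5 to 41.5) overlapped with the line (36.1 to 41.6) as well. So did Nfkbia in E0771 neutrophils (125.4 to 227.9, line 50.4 to 133.4).

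Of the other subunits, Nfkb1, Nfkb2 and Rela turned direction in neutrophils with the scaling, and Relb did not. Nfkb1, Nfkb2 and Rela were lower in neutrophils by -1.16 ± 0.11, -0.49 ± 0.11 and -0.70 ± 0.13 with TMM factors, and were 0.17, 0.84 and 0.61 with totals outside Rn45s and 0.15, 0.82 and 0.60 with factors from genes above background. In macrophages Nfkb2 and Rela were higher by 0.33 ± 0.10 and 0.33 ± 0.12, and Nfkb1 stood at 0.15 ± 0.11 (adjusted p = 0.212) with TMM factors but rose by 0.72 to 0.84 under the other 3 scalings. Relb was higher by 0.45 ± 0.14 in neutrophils and 0.68 ± 0.14 in macrophages. The calls of Relb in neutrophils and of Rela in macrophages were lost without replicate 2 and without replicate 3 of every group, respectively (adjusted p = 0.0522 and 0.0851). These scalings moved the median of all genes from 0.57 to between 1.31 and 1.90 in neutrophils, where the share of higher calls went from 58% to as much as 79.5%, and from -0.50 to between 0.05 and 0.17 in macrophages, where it went from 25.5% to as much as 56.4%.

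Of the 63 pathway genes, 32 were higher and 25 lower in neutrophils than in lines (44 and 11 with totals outside Rn45s), and 33 and 20 in macrophages (41 and 14). Il1b and Cxcl2, genes of inflammatory cytokines, were higher in neutrophils by 9.78 ± 0.23 and 8.94 ± 0.25. Receptors Tlr2 and Tnfrsf1b were higher in both cell types, by 3.03 ± 0.15 and 3.27 ± 0.15 in neutrophils and 3.94 ± 0.15 and 3.65 ± 0.15 in macrophages. Chuk, the gene of the I-kappa-B kinase alpha, was lower in both, by -2.65 ± 0.11 and -2.64 ± 0.11, also under the other scalings. A sum of 8 genes that respond to handling and stress, Fos and Egr1 among them, was 23.6 to 190 CPM in line libraries, 491 to 4884 in neutrophils and 754 to 2239 in macrophages, and its part in these differences was not tested.

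**Figure D2:**
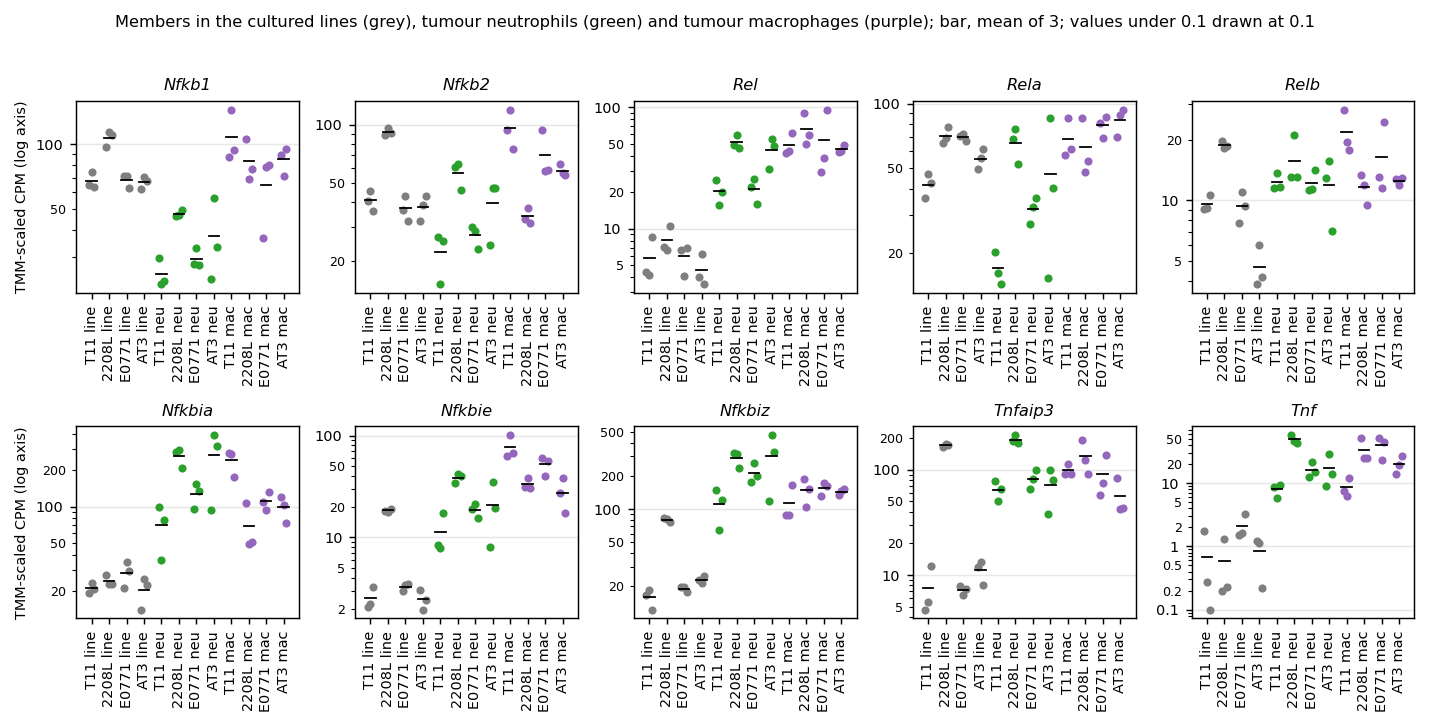
TMM-scaled CPM on log axes of the 10 genes in the T11, 2208L, E0771 and AT3 lines (grey) and in neutrophils (green) and macrophages (purple) of the same tumours, 3 libraries each with the mean as a bar. Tnf and Rel in every sorted library lie above every line library in CPM. Relative to background per kb, both overlap between T11 neutrophils and the T11 line. The lower neutrophil values of Nfkb1, Nfkb2 and Rela hold with TMM factors, not with totals outside Rn45s.

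In macrophages Nfkbia, Nfkbie, Nfkb2 and Tnf differed between the tumours, and Nfkbiz did not pass the test (adjusted p = 0.296). Nfkbia was 279.6, 274.6 and 174.7 CPM in the 3 T11 macrophage libraries. It was 106.4, 49.1 and 50.5 in 2208L, 110.0, 94.2 and 131.7 in E0771, and 119.5, 103.8 and 72.5 in AT3. All T11 libraries were above all others. Nfkbie had the same top group, with 77.3 ± 20.7 CPM in T11, 52.2 ± 10.9 in E0771, 33.7 ± 4.40 in 2208L and 27.6 ± 10.4 in AT3. Nfkb2 was 96.1 ± 22.4 in T11 and lowest in 2208L (33.9 ± 3.21), whose libraries were below all others.

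Tnf ran the other way in the first pair: T11 macrophages held 7.47, 6.38 and 11.97 CPM, and those of 2208L 52.1, 24.7 and 24.7. E0771 macrophages had 51.9, 23.7 and 44.7 CPM and AT3 macrophages 13.8, 19.5 and 26.6. With TMM factors T11 was thus lowest, with no overlap with the other 3. With totals outside Rn45s T11 reached 22.6 and AT3 began at 22.1, a slight overlap. Rel (45.1 to 66.4 CPM by group), Rela (62.5 to 83.9), Nfkb1 (65.2 to 108.5) and Nfkbiz (113.7 to 154.3) had overlapping libraries at each step of their order among the 4 tumours.

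The test of any difference among macrophages was passed by 5 of 10 members, where 35.5% of all genes passed: Nfkbia (adjusted p = 4.7e-05), Tnf (9.89e-05), Nfkb2 (0.000727), Nfkbie (0.000965) and Tnfaip3 (0.00957, all edgeR). The call of Tnfaip3 was lost without 2208L replicate 1 (0.0653), AT3 replicate 2 (0.0808) or AT3 replicate 3 (0.0831). Between 2208L and T11, 1 member was higher and 3 were lower in 2208L, against 7.77% and 7.94% of all genes. Tnf was higher by 2.08 ± 0.40 (adjusted p = 0.000262), and Nfkbia (by -1.71 ± 0.28, adjusted p = 3.12e-05), Nfkb2 (by -1.40 ± 0.26, adjusted p = 0.000221) and Nfkbie (by -1.10 ± 0.29, adjusted p = 0.00792) were lower. All 4 were called under each of the 4 scalings. Nfkbie alone of them lost its call when 1 library was left out, T11 macrophage 2 (-0.92, adjusted p = 0.0809). Factors from genes above background moved the median of all genes from 0.06 to 0.30 and the share of higher calls from 49.5% to 67.3%.

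Between AT3 and E0771 macrophages 0 members were higher and 2 lower in AT3, against 9.7% and 8.69% of all genes: Nfkbie by -0.99 ± 0.30 (adjusted p = 0.0207) and Tnf by -1.08 ± 0.37 (adjusted p = 0.0413). Neither call held throughout. Without E0771 macrophage 1, the library labelled BALB/C, Nfkbie was -0.84 (adjusted p = 0.0871) and Tnf -0.82 (0.174), and leaving out E0771 replicate 3 or AT3 replicate 1 or 3 also ended both (adjusted p from 0.0539 to 0.190), as did AT3 replicate 2 for Tnf (0.132). Tnfaip3 stood at -0.77 ± 0.31 (adjusted p = 0.0744) and was called lower under the other 3 scalings (-0.86 to -1.23) and without E0771 macrophage 1 (-0.98, adjusted p = 0.0366) or AT3 macrophage 1 (-1.09, adjusted p = 0.0358). Totals outside Rn45s moved the median of all genes from -0.06 to -0.53 and the share of higher calls from 52.8% to 16.1%.

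Among the 59 pathway genes tested in macrophages, 34 differed between tumours. Tnfrsf11a, the receptor for the osteoclast cytokine RANKL, was 267.7 ± 26.9 CPM in T11 and 39.2 ± 12.04 in E0771. Il1b had its lowest level in T11 (15.5 ± 7.12 CPM) and its highest in AT3 (423.5 ± 130.3). Traf1, an adapter of TNF receptors, was 42.9 ± 10.3 in T11 and 5.90 ± 0.857 in AT3, and Tnip1, a partner of Tnfaip3, 97.3 ± 35.9 in T11 and 25.6 ± 5.70 in 2208L. Against T11, 15 were higher and 9 lower in 2208L. Il1b (4.74 ± 0.38) and Vcam1 (4.19 ± 0.33), an adhesion gene, rose most there, and Traf1 (-2.26 ± 0.37), Tnfrsf11a (-2.18 ± 0.25), Tnip1 (-1.81 ± 0.29) and Nfkbid (-1.73 ± 0.34), another nuclear I-kappa-B gene, were among the lower. In AT3 against E0771, 10 were higher and 5 lower with TMM factors and 3 and 13 with totals outside Rn45s.

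Markers of other cells also differed between these macrophages. The 5-gene epithelial sum was 170.7 to 219.8 CPM in 2208L and 8.62 to 98.2 in the others. The 7-gene T and NK cell sum was 39.6 to 91.9 CPM in 2208L and E0771 and 5.08 to 11.5 in T11 and AT3, and the 4-gene dendritic cell sum reached 226.1 in E0771, against 7.20 to 12.8 in T11 and AT3. An 8-gene neutrophil sum was 1673 to 4938 CPM in T11 macrophages and 78.1 to 175.5 in the others, and 616.2 to 1892 in T11 neutrophils. In T11 macrophages that sum was mostly Mmp9 (3542 ± 1706 CPM), while S100a8 was at 0.820 ± 0.334 and Cxcr2 at 0.571 ± 0.274. The part of other cells in the differences was not tested.

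In CPM, neutrophils from 2208L tumours had the highest mean Tnf of all 16 groups, but overlapped with 2208L and E0771 macrophages. Relative to background per kb their median was 79.1 times, against 129.3 in E0771, 101.1 in AT3, 56.3 in 2208L and 33.9 in T11 macrophages. The 2208L neutrophil libraries held 57.5, 47.3 and 43.3 CPM and those of T11 8.81, 5.88 and 9.50. Those of E0771 held 12.7, 21.3 and 14.8, and those of AT3 8.94, 28.6 and 14.0. All 2208L libraries were above all other neutrophils. Tnfaip3 had the same top group, at 192.8 ± 17.95 CPM in 2208L against 64.9 ± 13.7 in T11, 72.3 ± 31.1 in AT3 and 81.8 ± 17.2 in E0771, again with no overlap. Nfkbia was 262.6 ± 45.9 in 2208L and 267.6 ± 155.8 in AT3, whose libraries ran from 93.0 to 392.5, and 128.2 ± 30.3 in E0771 and 70.7 ± 32 in T11. Nfkbiz was 111.4 ± 43.2 in T11 and 212.4 to 303.6 by group in the other 3.

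The test of any difference among neutrophils was passed by 8 members and 31.4% of all genes, and Nfkb1 and Relb did not (adjusted p = 0.0760 and 0.670). Nfkbia (0.00326), Tnfaip3 (0.00189) and Tnf (2.04e-06) were called under each of the 4 scalings, and 3 members remained called without the T11 tumours, where 14.9% of all genes were: Rel, Tnfaip3 and Tnf. With factors from genes above background 3 members were called, against 65.3% of all genes. Nfkbiz (0.0472) lost its call without any of 9 of the 12 libraries (adjusted p from 0.0675 to 0.194). With TMM factors 9 members were higher and 0 lower in 2208L than in T11 neutrophils, against 19.4% and 12.5% of all genes. With totals outside Rn45s this was 7 and 0, and with factors from genes above background 1 and 2. Tnf was the one called higher under every scaling, by 2.56 ± 0.34 with TMM factors (adjusted p = 1.82e-06), 1.94 with totals outside Rn45s and 1.15 with factors from genes above background (adjusted p = 0.00522). The other 8 lay between 0.87 (Nfkb1) and 1.90 (Rela) with TMM factors, and Relb at 0.32. With factors from genes above background Nfkb1 (-0.56) and Relb (-1.18) were called lower, Nfkb2 (-0.12), Rel (-0.13) and Nfkbiz (-0.06) turned negative and the other 4 were not called. The calls of Nfkb1 and Nfkbiz were lost without any of 4 of the 6 libraries (adjusted p from 0.0562 to 0.104).

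The scalings moved the median of all genes in this comparison from -0.21 to -0.85 and -1.66, and the share of higher calls from 60.8% to 19.8% and 3.36%. T11 neutrophils had the highest background, 0.664 to 0.849 CPM per kb of receptor exon, against 0.329 to 0.444 in 2208L. Macrophage markers were high in 2208L neutrophils too. Their 8-gene sum was 2080 to 3350 CPM, against 179 to 373 in T11, 419 to 432 in E0771 and 1038 to 1913 in AT3, and 2997 to 14450 in macrophages. Apoe stood at 1141 ± 334 CPM there and C1qa at 362 ± 88.6. The 5-gene epithelial sum was 200.8 to 214.5 CPM against 29.6 to 45.3 in other neutrophils, and the stress gene sum 1914 to 2394 against 491 to 1552 in T11. Their part in the differences was not tested.

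In AT3 against E0771 neutrophils 1 member, Rel, was higher and 0 lower, against 2.36% and 1.83% of all genes. Rel was higher by 1.07 ± 0.30 (adjusted p = 0.0368), at 44.6 ± 12.03 against 21.2 ± 4.80 CPM. The call was lost with totals outside Rn45s (0.78, adjusted p = 0.0650), with factors from genes above background (0.66, 0.197) and without any of 5 of the 6 libraries (adjusted p from 0.0855 to 0.189). Nfkbia stood at 1.07 ± 0.44 (adjusted p = 0.154) and rose by 1.48 (adjusted p = 0.00346) and Rela by 0.98 (adjusted p = 0.0206) without AT3 neutrophil 1, the lowest of its group for Nfkbia, Nfkbiz and Tnfaip3. The split of higher calls moved from 56.2% to 26.8% with totals outside Rn45s.

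Of 59 pathway genes, 39 were higher and 0 lower in 2208L than in T11 neutrophils with TMM factors, 20 and 3 with totals outside Rn45s and 8 and 17 with factors from genes above background. Myd88, the adapter of Toll-like and interleukin-1 receptors, was 20.5 ± 5.22 CPM in T11 and 86.2 ± 27.8 in 2208L, and Icam1, an adhesion gene, 12.3 ± 1.29 and 86.0 ± 18.8. Cxcl2 was 101.1 ± 52.9 CPM in T11 and 849.7 ± 473.9 in AT3. In AT3 against E0771 neutrophils, 4 pathway genes were higher and 0 lower with TMM factors and 3 and 2 with totals outside Rn45s.

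Between the sorted cell types, 2 members kept their direction and their call under all 4 scalings and without each of the 24 libraries in turn: Nfkb1 was higher in macrophages, and Nfkbiz lower by about as much as the median gene. Nfkb1 was 65.2 to 108.5 CPM by group in macrophages and 25.2 to 47.8 in neutrophils, a mean within-tumour difference of 1.29 ± 0.15 (adjusted p = 3.31e-10) that was 0.64 with totals outside Rn45s and 0.39 with factors from genes above background (adjusted p = 0.00354). It was 36.7 CPM in the lowest macrophage library and 56.2 in the highest neutrophil library. Nfkbiz was lower by -0.63 ± 0.17 (adjusted p = 0.00124), and by -1.26 and -1.501 under those scalings. The median of all genes was -0.63, -1.28 and -1.52 in the same order, so Nfkbiz lay at the shift of all genes and its direction is not particular to it. By tumour, where only TMM factors were used, Nfkbiz was called lower in AT3 alone (-1.12 ± 0.35, adjusted p = 0.00781). It stood at -0.98 ± 0.35 in 2208L (adjusted p = 0.0721), -0.44 ± 0.35 in E0771 (adjusted p = 0.412) and -0.0014 ± 0.35 in T11 (adjusted p = 0.997). Its means were 113.7 to 154.3 CPM by group in macrophages and 111.4 to 303.6 in neutrophils, and the libraries overlapped.

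Over all 10, 5 were higher and 2 lower in macrophages with TMM factors, against 28.2% and 48.2% of all genes (76.4% in all), 3 and 5 with totals outside Rn45s and 1 and 5 with factors from genes above background. Nfkbia was lower by -0.47 ± 0.18 (adjusted p = 0.0171) and by -0.73 to -1.35 under the other scalings, and its call at TMM factors was lost without any of 17 of the 24 libraries (values from -0.28 to -0.41, adjusted p from 0.0509 to 0.129). Rela (1.00 ± 0.17) and Nfkbie (1.10 ± 0.17) were higher under 3 scalings and not called with factors from genes above background (0.13 and 0.23). Nfkb2 (0.79 ± 0.14) and Rel (0.73 ± 0.16) turned to -0.09 and -0.17 there. Relb (0.20), Tnf (0.24) and Tnfaip3 (-0.04) were not called with TMM factors, and were called lower in macrophages with totals outside Rn45s (-0.46, -0.40 and -0.70). Tnf was called higher without AT3 neutrophil 2 (0.48, adjusted p = 0.0169) or E0771 macrophage 2 (0.41, adjusted p = 0.0460). The median of all genes was -0.63 with TMM factors and -0.89, -1.28 and -1.52 with the others, and the share of higher calls went from 37% to 11.1%.

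**Figure D3:**
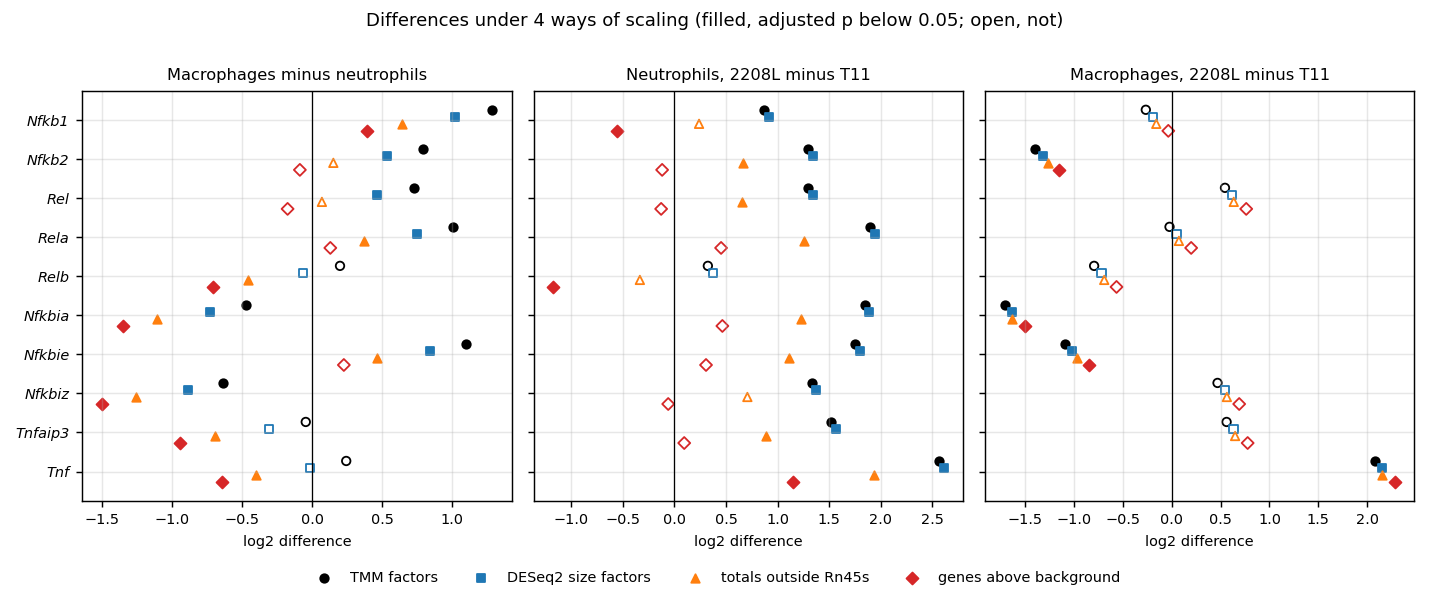
Log2 differences of the 10 genes under 4 ways of scaling, for macrophages minus neutrophils, 2208L minus T11 neutrophils and 2208L minus T11 macrophages; filled marks have an adjusted p below 0.05. Tnf, Nfkb2, Nfkbia and Nfkbie keep filled marks on 1 side in the macrophage panel, as do Nfkb1, Nfkbiz and Nfkbia in macrophages minus neutrophils and Tnf in 2208L minus T11 neutrophils, while Nfkb2, Rel, Relb and Tnf change side in the first panel and Nfkb1, Nfkb2, Rel, Relb and Nfkbiz in the second.

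The difference between the cell types was not the same in the 4 tumours for 6 of 10 members, against 26.8% of all genes: Nfkbia (adjusted p = 1.19e-06), Nfkb2 (4.44e-06), Nfkbie (3.23e-05), Rela (0.00615), Tnf (0.0247) and Rel (0.0353). Nfkbia was higher in macrophages of T11 tumours by 1.73 ± 0.37, lower in those of 2208L by -1.95 ± 0.37 and of AT3 by -1.49 ± 0.36, and stood at -0.17 ± 0.36 in E0771. Nfkb2 was higher by 2.06 ± 0.30 in T11 and 1.38 ± 0.29 in E0771, and was 0.50 ± 0.29 in AT3 and -0.76 ± 0.29 in 2208L. Nfkbie was higher by 2.75 ± 0.36 in T11 and 1.496 ± 0.35 in E0771. Tnf was higher by 1.31 ± 0.36 in E0771 and was -0.56 ± 0.34 in 2208L. Within T11 tumours 6 members were higher and 0 lower (27.4% and 39.8% of all genes), within E0771 6 and 0 (11.7% and 5.76%), within AT3 2 and 2 (19.3% and 31.4%, 50.7% in all) and within 2208L 0 and 1 (4.74% and 3.28%, 8.02% in all). These differences by tumour were fitted with TMM factors only. With totals outside Rn45s, T11 means were 271.2 in neutrophils and 415.7 in macrophages for Nfkbia, and 78.5 and 85.2 for Rel. Nfkb1, Nfkb2, Rela and Nfkbie means were also higher in T11 macrophages on that scale. Relb, Nfkbiz, Tnfaip3 and Tnf means were lower.

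Nfkbia, Nfkb2, Nfkbie and Tnf kept the call for a difference between tumours under all 4 scalings. Rela lost it with factors from genes above background and Rel with DESeq2 size factors. Without the T11 tumours, an alternative chosen after values were seen, 1 member was called, Nfkb2 (adjusted p = 0.00597), against 3.84% of all genes, and Nfkbia was at 0.0707, Tnf at 0.0677 and Nfkbie at 0.0763. Rel lost its call without any of 9 of the 24 libraries (adjusted p from 0.0524 to 0.0706) and Tnf without any of 6 (0.0514 to 0.0767), and without both E0771 libraries labelled BALB/C Tnf was at 0.139.

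A ratio of 2 members in 1 library does not depend on the scaling, and 3 such ratios, chosen after values were seen, are given as a description. It does hold background, which was not subtracted. In T11 neutrophils Rela was 6.20 to 9.94 times and Nfkb1 2.20 to 3.74 times the background per kb. The part of background in the T11 ratios was not tested. Per kb of exon, log2 Nfkbia over Rela was -0.05 to -0.61 by group in the 4 cultured lines the tumours came from. It was 2.88 ± 0.705 in neutrophils of T11, 2.94 ± 0.0598 in those of 2208L, 2.91 ± 0.236 in E0771 and 3.52 ± 0.388 in AT3. In macrophages it was 2.75 ± 0.402 in T11 and 1.02 ± 0.206, 1.43 ± 0.0960 and 1.15 ± 0.573 in 2208L, E0771 and AT3. T11 macrophages overlapped with neutrophils, and no library of the other 3 macrophage groups reached the lowest neutrophil library (2.07). Macrophages minus neutrophils thus came to -0.12 in T11, -1.92 in 2208L, -1.48 in E0771 and -2.38 in AT3. For Nfkbiz over Rela the differences were -1.94, -0.90, -1.75 and -2.01 in the same order, and for Nfkbia over Nfkb1 they were -0.20, -2.80, -1.23 and -2.48.

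**Figure D4:**
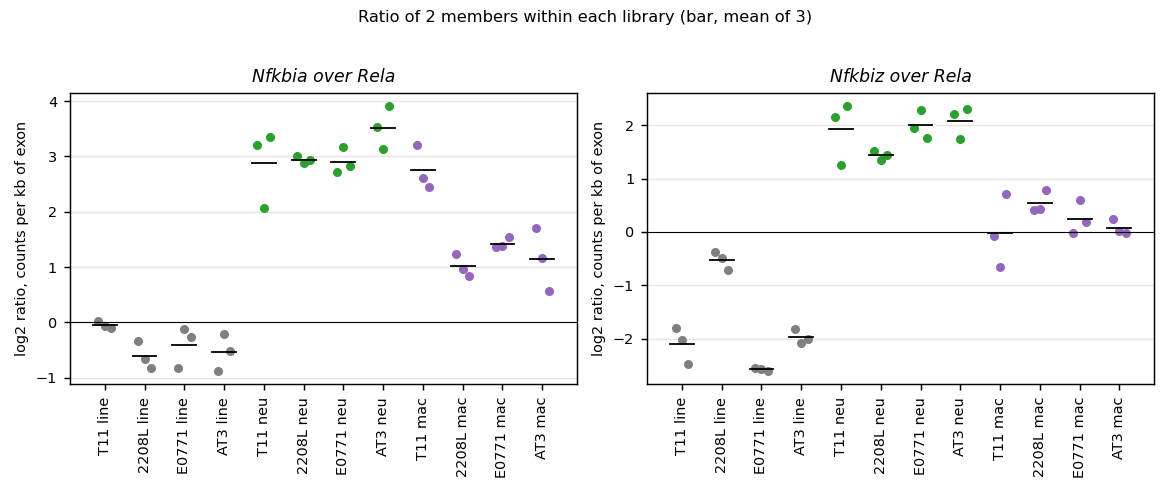
Log2 ratio, per kb of exon, of Nfkbia over Rela (left) and Nfkbiz over Rela (right) in each library of the T11, 2208L, E0771 and AT3 lines (grey), neutrophils (green) and macrophages (purple), with the mean as a bar. The mean of Nfkbia over Rela is 2.88 to 3.52 in neutrophils, 2.75 in T11 macrophages and 1.02 to 1.43 in the other macrophages.

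With TMM factors 34 of 62 pathway genes were higher and 13 lower in macrophages, with totals outside Rn45s 11 and 25, and with factors from genes above background 8 and 36. Those that kept direction and call under each scaling included Tnfrsf11a (2.01 ± 0.14), Ltbr (1.30 ± 0.18), the receptor of the non-canonical branch, Irak1 (1.28 ± 0.16), Tab2 (1.61 ± 0.17) and Ikbkb (1.27 ± 0.15), the gene of the main I-kappa-B kinase, which were higher. Ptgs2 (-4.07 ± 0.22), Il1b (-3.37 ± 0.23), Ccl3 (-2.98 ± 0.19), Nfkbid (-0.98 ± 0.16) and Il1r1 (-0.95 ± 0.22) were lower in macrophages under each scaling. Of 18 known targets 7 were higher and 8 lower with TMM factors, 3 and 11 with totals outside Rn45s and 3 and 12 with factors from genes above background. Of 17 adapters and ligases the counts were 13 and 1, 3 and 3, and 1 and 9, so their direction turned with the scaling. Over all genes 28.2% were higher and 48.2% lower with TMM factors. Of the called genes, 37% were higher with TMM factors, 17.1% with totals outside Rn45s and 11.1% with factors from genes above background.

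Over the means of the 16 groups, the genes whose log2 levels ran most like each member were taken from 6548 whose mean log2 CPM was at least 4. Groups share libraries' depth and background, so the correlations are a description. Rel ran most like Rgs2 (Pearson r = 0.977), Coro1a (0.977) and Laptm5 (0.973). Nfkbiz ran most like Btg2 (0.964), Egr1 (0.938) and Junb (0.937), and Nfkbia like Midn (0.906), Ptafr (0.892) and Atg2a (0.892). For Nfkbie these were Arhgap27 (0.943), Sema4d (0.925) and the pathway gene Birc3 (0.907), for Tnfaip3 Rbm47 (0.908), Cxcl16 (0.895) and C3 (0.868), and for Tnf Dclre1c (0.955), Cd274 (0.954) and Akna (0.953). Among the subunits Nfkb1 ran like Nfe2l1 (0.965), Rela like Cope (0.936), and Nfkb2 and Relb had lower values, 0.861 with Micall1 and 0.830 with Rnf19b.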

How the data were processed

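The authors deposited raw counts per gene symbol. Library preparation followed a published protocol, per the labels' protocols. The submitters' processing notes name bcl2fastq 2.17, STAR 2.4.2a and mm10. The gene counter, annotation and strand setting are not given in the sources used here. The columns marked PyMTE were taken as PyMT-N because no other line was left for them. Symbols were matched to exon lengths in GENCODE M21 (22750 by symbol, 949 by synonym, 355 unmatched). Counts were tested with edgeR 4.0.16 quasi-likelihood fits in R 4.3.3 (TMM factors, filterByExpr with a minimum count of 10 and total of 15), separately for lines, neutrophils, macrophages and all sorted libraries, and with all 48 libraries for sorted cells against lines. P-values were adjusted (Benjamini-Hochberg) over all genes tested, and all 10 members passed each filter. Fits were tested on simulated data. DESeq2 1.42.0, other scalings, no filter, replicate blocks and left-out libraries were alternatives. Replicate pairs differed by 1.313 to 18.962 chi-square per degree of freedom, and 0 of 48 were identical. The column names of the sorted libraries carry numbers that match between both cell types of a tumour, and the labels do not say what they mean. Same-numbered macrophage and neutrophil libraries of a tumour correlated by -0.104 to 0.113 in their deviations, over 0.1 in 1 of 12. This cannot show whether they shared an animal, and the main tests did not pair them. Members always named are the 10; of each role in the pathway list, the most changed called genes were named. The members and lists were chosen with earlier results of these data known.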

Additional observations from a re-analysis of the deposited data

Results flagged for a closer look

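For 6 members the difference between macrophages and neutrophils differed between the 4 tumours, by the interaction term of the edgeR quasi-likelihood fit over the 24 sorted libraries: Nfkbia (adjusted p = 1.19e-06), Nfkb2 (adjusted p = 4.44e-06), Nfkbie (adjusted p = 3.23e-05), Rela (adjusted p = 0.00615), Tnf (adjusted p = 0.0247) and Rel (adjusted p = 0.0353). With TMM factors Nfkbia was higher in macrophages of T11 tumours by 1.73 ± 0.37 and lower in those of 2208L by -1.95 ± 0.37 on the log2 scale. No group had more than 3 libraries, so single libraries were not tested as outliers.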

How the results depend on the processing

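The number of members called stayed within 1.5 times its main value in 234 combinations of a comparison and an alternative, fell below that in 21 and rose above it in 4. Shares of all genes called are in brackets here. Among neutrophils, 3 of 10 differed between tumours with factors from genes above background (65.3%). Without the T11 tumours, an alternative chosen after seeing the data, 3 differed (14.9%). Between 2208L and T11, 3 differed with factors from genes above background (72%). Between AT3 and E0771 neutrophils the count was 0 with totals outside Rn45s (4.49%) and 0 with factors from genes above background (2.45%). It was 0 without the E0771 library labelled BALB/C (1.02%) and 2 with all 48 libraries in one fit (7.43%). Between AT3 and E0771 macrophages it was 5 with totals outside Rn45s (19%), 0 with no filter on low counts (12.6%) and 1 without the library labelled BALB/C (11.7%). The difference between tumours in macrophages against neutrophils was called for 10 members with all 48 libraries in one fit (47.7%, main fit 26.8%). Without the T11 tumours it was called for 1 (3.84%).

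With the replicate number as a block the count was 0 in AT3 against E0771 neutrophils (3.11% of all genes) and 1 in AT3 against E0771 macrophages (15.7%). The block moved no other count by more than 1.5 times, but ended the call of Nfkbiz among neutrophils (adjusted p = 0.108) and of Rel for the difference between tumours (adjusted p = 0.0537). A block of tumour and number together was chosen after seeing the data. It left 7 members called between macrophages and neutrophils (74.2% of all genes) and 5 for the difference between tumours (23.1%). The cause of these changes was not tested.

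Leaving out 1 library at a time gave 10 to 10 members called among the lines, where 85.1% to 88.6% of all genes were. It gave 6 to 7 in PyMT-N against PyMT-M (39.2% to 40.3%) and 6 to 7 in 4T1 against 67NR (40.4% to 43.7%). The counts were 7 to 8 in 2208L against T11 (36.1% to 36.9%) and 3 to 5 in AT3 against E0771 (36.8% to 45.5%). Neutrophils had 7 to 9 in the test of any difference (19.3% to 38.6% of all genes). They had 7 to 9 in 2208L against T11 (17.4% to 25%) and 0 to 3 in AT3 against E0771 (1.02% to 13.2%). In macrophages these were 4 to 5 (25.4% to 35.6%), 3 to 4 (9.23% to 15.8%) and 0 to 2 (8.99% to 17.9%). Macrophages against neutrophils had 6 to 7 (72.6% to 76.2%) and the difference between tumours 4 to 9 (20.7% to 32.4%). Against lines, 1 replicate number of every group was left out. Neutrophils then had 9 to 10 (77.2% to 78.7%) and macrophages 8 to 10 (49.4% to 54.7%).

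Of the single-gene results 21 changed sign, counted where either value was called. With factors from genes above background, 2208L against T11 neutrophils turned to -0.56 for Nfkb1, -0.12 for Nfkb2, -0.13 for Rel, -1.18 for Relb and -0.06 (-0.06075) for Nfkbiz. Macrophages against neutrophils turned to -0.46 for Relb and -0.40 for Tnf with totals outside Rn45s, and to -0.09 (-0.08681) for Nfkb2, -0.17 for Rel, -0.71 for Relb and -0.64 for Tnf with factors from genes above background. Neutrophils against lines turned to 0.25 for Nfkb2 and 0.04 (0.0381) for Rela with DESeq2 size factors, to 0.25 and 0.04 (0.03594) in the DESeq2 test, to 0.17 for Nfkb1, 0.84 for Nfkb2 and 0.61 for Rela with totals outside Rn45s, and to 0.15, 0.82 and 0.60 with factors from genes above background.

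Over all genes, 5788 were called between 2208L and T11 neutrophils against 13079 with factors from genes above background, and 5693 among neutrophils against 11850 with those factors and 2389 without the T11 tumours. Between AT3 and E0771 neutrophils 761 were called, against 445 with factors from genes above background, 1606 with all 48 libraries in one fit and 205 without the BALB/C library. That one fit called 11961 genes among macrophages in place of 5224, 5692 in place of 2312 between 2208L and T11, and 7284 in place of 2706 between AT3 and E0771. For the difference between tumours it called 10309 in place of 5462, and 687 were called without the T11 tumours; macrophages against neutrophils had 15558, and 10312 without them. Low counts limit Tnf and Rel in lines, and Nfkbie and Tnfaip3 in the 5 lines where they were low, and the high background limits Nfkb1, Relb and Rel in neutrophils.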
